A study of Mus musculus with 6 samples.

Results

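The 9 immediate early genes described here, Fos, Fosb, Jun, Junb, Egr1, Egr2, Ier2, Ier3 and Atf3, were chosen by name and matched to the gene identifiers of the count files, which hold 50686 genes. All 9 passed the filter on low counts that 16729 genes passed. The cells were iPSCs made from mouse gingival fibroblasts, grown on SNL feeder cells that were then removed by trypsin, formed into embryoid bodies, exposed to retinoic acid and attached to gelatin-coated plates. In the ICF group, 3 samples received an intermittent compressive force of 1.5 g per square centimetre at 0.23 Hz for 24 h in serum-free medium, and the control group of 3 samples was left unloaded. The sample labels number donors 1 to 3 in each group, and RNA was collected at 24 h, so the values describe sustained loading and not its first minutes.

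Immediate early genes are genes that cells switch on within minutes of a stimulus, from transcription factors that are already present and without new protein. Mechanical load, serum and growth factors are among the known stimuli, acting through MAP kinases on serum response factor, its ternary complex partners and CREB. Their mRNAs are short-lived, so that in many cells a single pulse fades soon after the stimulus ends. Among the 9 genes, Fos and Fosb encode FOS proteins and Jun and Junb encode JUN proteins, which pair as the transcription factor AP-1. Egr1 and Egr2 encode zinc finger transcription factors, Ier2 a nuclear protein, Ier3 a small membrane-associated protein linked to cell survival, and Atf3 a stress-induced transcription factor that also pairs with JUN proteins.

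Per sample, the reads on genes numbered 28711166 to 34194413. In ICF donor 3, 89.0% of the counts above 0 could be divided by 4 without remainder, compared with 20.3% to 21.5% elsewhere, so its low counts move in steps, and it had 20802 genes with a count where the others had 24340 to 24889. Its total of 28869790 reads on genes is 7217448 when divided by 4, and which of these stands for its depth was not tested. Donor 3 stood apart from donors 1 and 2 in both groups, with a median chi-square per gene of 2.71 to 4.97 against them, compared with 0.966 and 1.05 between donors 1 and 2, where counting noise gives 0.455. That noise value assumes counts that do not move in steps, so it may be too low for ICF donor 3. In the control group alone, donor 3 gave 3.23 and 2.71. Pluripotency markers were abundant, with Pou5f1 at 741 to 883 CPM (read counts scaled to a common depth with TMM factors), and the summed level of 10 such markers was 3874 to 4637 CPM in control and 3468 to 3918 CPM in ICF samples, with Tdgf1 (log2 fold change -0.81) and Epcam (-0.32) called lower. Among 8 endothelial and blood markers, summing to 58.8 to 96.9 CPM, Ptprc, Lyz2 and Hba-a1 had 0 to 9 counts per sample, Csf1r had 77 to 148, and none of the 5 tested was called. Of 6 endoderm markers Sox17 was called lower (-0.34). Foxa2 (0.10), Gata4 (0.03), Gata6 (0.19), Afp (0.29) and Dab2 (0.25) differed in the other direction and were not called. Together the 6 endoderm markers came to 896.6 to 1116.1 CPM in control and 1026.5 to 1221.3 CPM in ICF samples. Of 6 neural markers none was called. Summed over 10 mesenchymal markers, 9 of which were tested, the level was 226 to 255 CPM in the control and 260 to 280 CPM with ICF, with Col1a1 and Col3a1 called higher. Most of this sum was Pdgfra, at 170 to 182 CPM in every sample, which was not called (log2 fold change 0.03). The part of these marker differences in the results was not tested.

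The upstream sequences of 3 of the genes are shown because Ier3 had the only change that passed the test, Atf3 was higher in every ICF sample, and Fos, the best known gene of the group, had a fold change close to 0. RefSeq start sites on GRCm38.p6 were found for 7 of the 9 genes, and Egr1 and Ier2 were not among them. Capitals mark matches to 4 motifs, none of which overlap in these stretches. The CRE core, bound by CREB and ATF proteins, was searched as TGACGT on both strands. The HRE core, bound by hypoxia-inducible factors, was searched as ACGTG on both strands, and the longer kappaB site likewise. The TATA core was searched as TATAA on the strand of the gene. The Ier3 stretch is at chr17:35821463-35821682 (plus strand), the Atf3 stretch at chr1:191183334-191183583 (minus strand) and the Fos stretch at chr12:85473640-85473889 (plus strand). The Ier3 stretch runs from 250 to 31 bases before the start site, and the others from 250 bases to the base before it. The last 7 bases of the Atf3 stretch lie in an exon of another annotated Atf3 transcript.
Ier3: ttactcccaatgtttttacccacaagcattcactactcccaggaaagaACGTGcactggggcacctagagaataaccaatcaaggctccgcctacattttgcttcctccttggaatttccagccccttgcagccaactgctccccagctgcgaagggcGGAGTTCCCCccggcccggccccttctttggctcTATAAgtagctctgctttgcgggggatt
Atf3: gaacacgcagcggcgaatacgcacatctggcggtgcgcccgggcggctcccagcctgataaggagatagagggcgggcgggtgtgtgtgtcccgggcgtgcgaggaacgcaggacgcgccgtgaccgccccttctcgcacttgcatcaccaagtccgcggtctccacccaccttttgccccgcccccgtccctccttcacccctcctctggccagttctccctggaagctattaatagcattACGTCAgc
Fos: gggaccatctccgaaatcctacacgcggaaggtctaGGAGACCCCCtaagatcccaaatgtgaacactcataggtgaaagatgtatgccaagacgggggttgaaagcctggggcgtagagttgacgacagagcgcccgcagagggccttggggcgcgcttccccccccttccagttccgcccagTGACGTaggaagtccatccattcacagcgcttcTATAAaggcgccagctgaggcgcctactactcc

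In the 250 bases before the start site, the CRE core lay 66 bases upstream in Fos and 8 bases upstream in Atf3. It was also present in Egr2 and in 6.47% of all 32851 windows of the same length. The HRE core lay 202 bases upstream of the start site in Ier3 and was present in 16.6% of all windows, and among the 7 genes it was otherwise found in Egr2, which has several annotated start sites. The kappaB site was found in Ier3, Fos, Fosb and Egr2 and in 7.25% of all windows. The CArG box, the site of serum response factor, was found in Egr2 and in 1.47% of all windows. Bases further upstream were not searched, nor were Egr1 and Ier2, so a missing match holds only for these windows. The AP-1 site (TGANTCA) was in none of the 7 genes and in 6.75% of all windows. These are matches of letters and not measured binding.

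The comparison of ICF with control asked whether these early response genes differed after 24 h of loading. Ier3 fell 3.37-fold, and none of the other 8 genes passed the test. In edgeR's quasi-likelihood test at a Benjamini-Hochberg adjusted p under 0.05, 0 of the 9 genes were called higher and 1 was called lower with ICF, where 3.47% of all 16729 genes tested were called higher, 4.38% lower and 7.85% in either direction. DESeq2 also called 0 higher and 1 lower, where it called 5.64% of all genes higher and 6.63% lower. Without ICF donor 3 the edgeR counts were again 0 and 1, against 3.73% and 4.52% of all genes. At an unadjusted p under 0.05, edgeR on all 6 samples gave 2 of the 9, Ier3 and Atf3, where 25.6% of all genes passed. With the donor number as a block the count was 1 higher (Atf3) and 1 lower (Ier3), where 14.6% of all genes were called higher and 15.3% lower. The median log2 fold change of the 9 genes was 0.08, and that of all genes tested was 0.0026. In these bulk samples, fewer cells that contain a transcript and less of it per cell cannot be told apart.

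Ier3 (chr17:35821684-35822923, GRCm38) measured 46.6, 46.1 and 30.1 CPM in control donors 1, 2 and 3, and 12.8, 11.9 and 11.7 CPM in ICF donors 1, 2 and 3. Every ICF sample lay below every control sample, which was so for 15.7% of all genes tested, and the ICF samples lay closer together than the control samples, of which donor 3 was the lowest. Control samples averaged 41.0 ± 9.39 CPM and ICF samples 12.2 ± 0.57 CPM (SD, n = 3 each). It differed by -1.75 on the log2 scale (standard error 0.21, adjusted p = 0.000812, edgeR's quasi-likelihood test). Within donors 1, 2 and 3 the log2 ratio was -1.86, -1.95 and -1.36. Dropping any 1 of the 6 samples left the log2 fold change between -1.93 and -1.65, past the threshold all 6 times. By log2 fold change it ranked 59 among the 16729 genes, counted from the steepest fall.

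Atf3 (chr1:191170296-191218039) measured 14.7, 16.1 and 14.6 CPM in control donors 1, 2 and 3, and 17.0, 18.9 and 22.2 CPM in ICF donors 1, 2 and 3. Every ICF sample lay above every control sample, which was so for 15.6% of all genes tested, and ICF donor 3 was the highest. At 0.35 on the log2 scale (SE 0.12), the difference did not pass the test (adjusted p = 0.09, edgeR's quasi-likelihood test). With the donor number as a block it passed (adjusted p = 0.00248, edgeR), and with DESeq2 it did not (adjusted p = 0.0542). Dropping any 1 of the 6 samples gave 0.25 to 0.45 and no pass in 6 tests, with adjusted p-values from 0.0925 to 0.267 in edgeR. For Ier3 and Atf3 exact permutation of log2 CPM (two-sided) gave p = 0.1, the lowest that 3 samples against 3 allow, so that this test could not pass 0.05 for any gene.

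**Figure D1:**
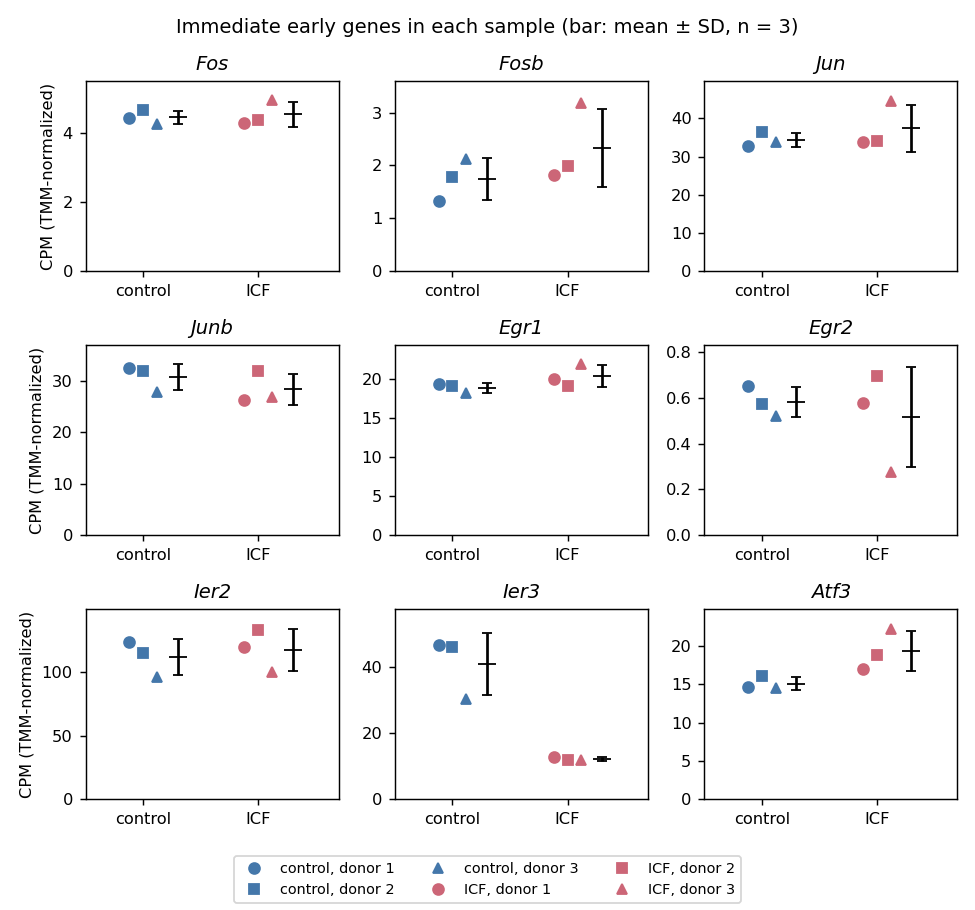
Level of each of the 9 genes in every sample, in TMM-normalized CPM on axes that start at 0, with the donor number as the symbol and the mean ± SD (n = 3) as the bar. The groups separate for Ier3, with 30.1 to 46.6 CPM in the control and 11.7 to 12.8 CPM with ICF, and narrowly for Atf3, and overlap for the other 7 genes.

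Fos (chr12:85473890-85477273) had 4.45, 4.66 and 4.28 CPM in control donors 1, 2 and 3, and 4.29, 4.39 and 4.97 CPM in ICF donors 1, 2 and 3. The groups overlapped, and the lowest and the second lowest of the 6 samples came from different groups. Its fitted difference, ICF over control, was 0.026 on the log2 scale (SE 0.07, adjusted p = 0.928, edgeR), resting on at most 149 counts per sample. Without ICF donor 3 it was -0.034.

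Fosb (chr7:19302696-19310051) had 1.33, 1.79 and 2.12 CPM in control donors 1, 2 and 3, and 1.81, 2.00 and 3.18 CPM in ICF donors 1, 2 and 3. The highest value came from ICF donor 3, and the groups overlapped. On the log2 scale ICF minus control gave 0.41 (SE 0.31, adjusted p = 0.392, edgeR), and it was 0.13 without ICF donor 3. These values rest on 39 to 66 counts in 5 samples and on 92 in ICF donor 3, where most counts are multiples of 4. Fosb over Fos, as a log2 ratio within each sample, was -1.34 ± 0.35 in control and -0.99 ± 0.31 in ICF samples (SD, n = 3 each), and the groups overlapped.

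Jun (chr4:95049034-95052222) had 32.8, 36.4 and 33.9 CPM in control donors 1, 2 and 3, and 33.7, 34.05 and 44.6 CPM in ICF donors 1, 2 and 3. ICF donor 3 was the highest and the other ICF samples lay within the control range. It differed by 0.12 on the log2 scale (standard error 0.14, adjusted p = 0.543, edgeR), and it was -0.013 without ICF donor 3. Junb (chr8:84974484-84978718) had 32.5, 31.9 and 27.9 CPM in control donors 1, 2 and 3, and 26.3, 31.9 and 26.9 CPM in ICF donors 1, 2 and 3. Its groups overlapped, and ICF over control came to -0.12 on the log2 scale (SE 0.11, adjusted p = 0.516, edgeR). An antisense RNA, Junos, overlaps 232 bases of the Jun exons and Prdx2 overlaps 173 bases of the Junb exons on the opposite strand. The libraries were strand-specific, but whether the counting used the strand is not given in the sources used here, so reads in these overlaps are uncertain.

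Egr1 (chr18:34859823-34864984) had 19.4, 19.1 and 18.2 CPM in control donors 1, 2 and 3, and 20.04, 19.1 and 21.95 CPM in ICF donors 1, 2 and 3. The groups overlapped, with nearly equal values in donor 2, and the spread in each group was small. On the log2 scale ICF minus control gave 0.11 (SE 0.06, adjusted p = 0.468, edgeR), and over 12 alternative settings it lay between 0.06 and 0.16 without passing. Egr2 (chr10:67535475-67542188) was the least abundant of the 9, with 15 to 19 counts per control sample and 20, 23 and 8 counts in ICF donors 1, 2 and 3. It differed by -0.16 on the log2 scale (standard error 0.36, adjusted p = 0.826, edgeR), and it was 0.13 without ICF donor 3, so its sign rested on that sample.

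Ier2 (chr8:84661331-84662852) was the most abundant, with 123.7, 115.3 and 95.9 CPM in control donors 1, 2 and 3, and 119.9, 133.0 and 100.1 CPM in ICF donors 1, 2 and 3. Donor 3 was the lowest in both groups, and the groups overlapped. Its fitted difference, ICF over control, was 0.08 on the log2 scale (SE 0.16, adjusted p = 0.733, edgeR). Ier2 and Ier3 share a name but encode unrelated proteins, and 5 ratios between pairs of genes were compared. The log2 ratio of Ier3 over Ier2 within each sample was -1.47 ± 0.18 in control and -3.26 ± 0.20 in ICF samples (SD, n = 3 each), with no overlap (two-sided exact permutation p = 0.1). As Ier2 differed by only 0.08, this ratio restates the fall of Ier3 and is not separate evidence. The log2 ratio of Atf3 over Jun also separated the groups, at -1.18 ± 0.03 and -0.95 ± 0.08 (SD, n = 3 each, exact permutation p = 0.1), while those of Jun over Junb and Egr1 over Egr2 overlapped.

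**Figure D2:**
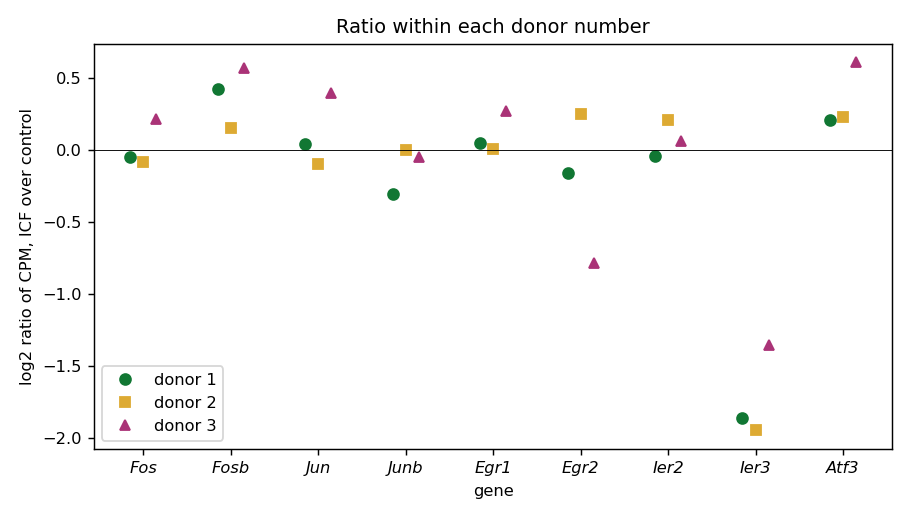
Log2 ratio of ICF over control CPM within each donor number for the 9 genes, with each point 1 pair of samples. All 3 points are below 0 for Ier3 and above 0 for Fosb, Egr1 and Atf3, and donor 3 gives the highest ratio for Fos, Fosb, Jun, Egr1, Ier3 and Atf3.

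The plot of ratios within donors shows how far donor 3, which holds the sample with counts in steps of 4, shaped these values. For Fos, Fosb, Jun, Egr1 and Atf3 its ratio was 0.21, 0.57, 0.40, 0.27 and 0.61 on the log2 scale, above those of donors 1 and 2. For Ier3 too donor 3 had the highest ratio, -1.36, and so the smallest fall. There its ICF sample, at 11.7 CPM, lay near those of donors 1 and 2 (12.8 and 11.9 CPM). Its control sample, at 30.1 CPM, lay below the other controls (46.6 and 46.1 CPM). The log2 fold change of Ier3 was -1.93 without control donor 3 and -1.72 without ICF donor 3. In donors 1 and 2 the ratio of Fos was -0.05 and -0.09, that of Jun 0.04 and -0.10, and that of Egr1 0.05 and 0.0044. With the counts of ICF donor 3 divided by 4, the adjusted p was 0.000538 for Ier3 and 0.0931 for Atf3 in edgeR, and without this sample it was 0.00128 and 0.138.

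The 9 genes spanned a wide range of levels. Per kilobase of exon (the union of all annotated exons), the control level was 73.3 ± 9.36 CPM per kb for Ier2, 36.2 ± 8.30 for Ier3, 13.4 ± 1.09 for Junb, 10.8 ± 0.57 for Jun, 7.02 ± 0.38 for Atf3, 4.21 ± 0.14 for Egr1, 1.90 ± 0.08 for Fos, 0.28 ± 0.06 for Fosb and 0.17 ± 0.02 for Egr2 (SD, n = 3 each). In the control samples no neighbours in this order overlapped. Among all genes tested, Ier2 stood at percentile 96.2 of this level, Jun at 70.2, Egr1 at 50.4, Fos at 35.8 and Egr2 at 5.28, over the 6 samples. With ICF, Ier3 moved from the second place to 10.7 ± 0.51 CPM per kb (SD, n = 3). There its samples overlapped with those of Jun, at 11.7 ± 1.94 CPM per kb, and lay just below those of Junb, at 12.3 ± 1.34 CPM per kb (SD, n = 3 each). Jun and Junb also overlapped with ICF.

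**Figure D3:**
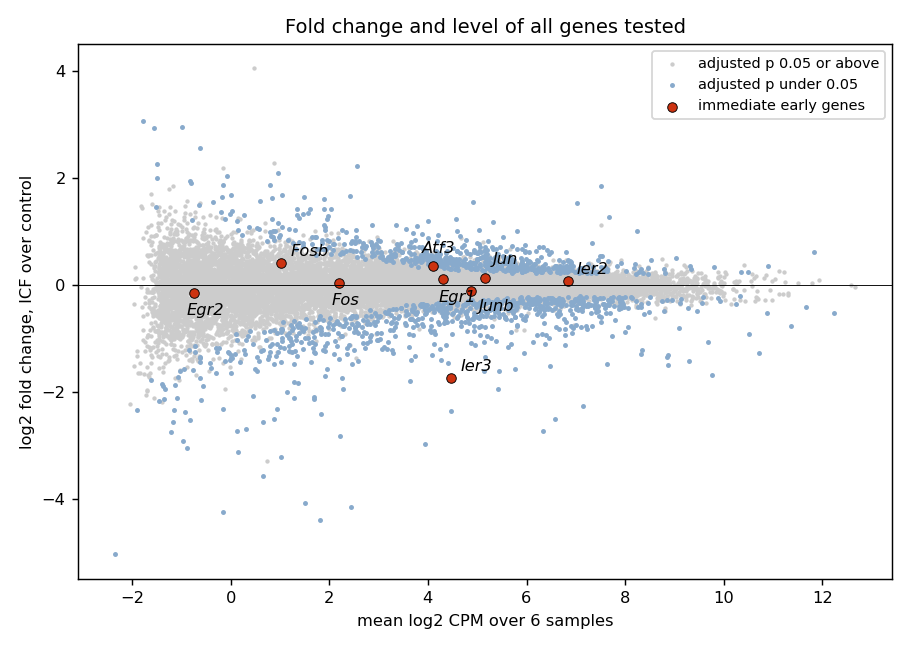
Log2 fold change of ICF over control against the mean log2 CPM over 6 samples for all 16729 genes tested, with genes past the threshold in blue and the 9 immediate early genes in red. Ier3 sits at -1.75, away from the other 8, which lie between -0.16 and 0.41.

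AP-1 consists of pairs of FOS, JUN, ATF and MAF family proteins, so the make-up of each family was described per kilobase. Fosl1 and Fosl2, which encode FOS relatives without a strong activation domain, were the other members of the Fos family. Fosl1 made up 38.5%, 37.5% and 39.7% of the family in control donors 1, 2 and 3, and 47.6%, 46.0% and 44.8% in ICF donors 1, 2 and 3. Fosl2 made up 28.4%, 27.7% and 23.9% in control donors 1, 2 and 3, and 16.8%, 17.1% and 19.96% in the ICF samples. For both the groups did not overlap, and the exact permutation p was 0.1, the smallest possible, among 7 shares compared. Shares of a family add up to the whole in each sample, so the rise of Fosl1 and the fall of Fosl2 are not separate results. The share of Fos was 30.3% ± 0.41 in the control and 30.2% ± 1.61 with ICF (SD, n = 3 each), and the family sum overlapped between the groups, at 5.94 to 6.53 and 5.92 to 7.43 CPM per kb.

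As single genes, neither Fosl1 (log2 fold change 0.29, adjusted p = 0.211) nor Fosl2 (-0.53, adjusted p = 0.0916) passed the edgeR test. With the donor block, Fosl2 passed (adjusted p = 0.000422) and Fosl1 did not (adjusted p = 0.109, edgeR), and Fosl2 also passed in edgeR without ICF donor 3 (adjusted p = 0.0108) or with its counts divided by 4 (0.0485), and in DESeq2 (0.0317). Its level overlapped between the groups, since the log2 ratio was -0.85 and -0.84 in donors 1 and 2 and 0.06 in donor 3. In the Jun family, Jund made up 73.5% ± 3.10 in the control and 71.0% ± 3.69 with ICF (SD, n = 3 each). Jun made up 11.9% ± 1.96 and 14.2% ± 3.42, and Junb 14.6% ± 1.18 and 14.8% ± 0.59. All 3 shares overlapped between the groups. Jund itself had a log2 fold change of -0.20 (adjusted p = 0.439, edgeR), and it passed with the block (adjusted p = 0.0106, edgeR).

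**Figure D4:**
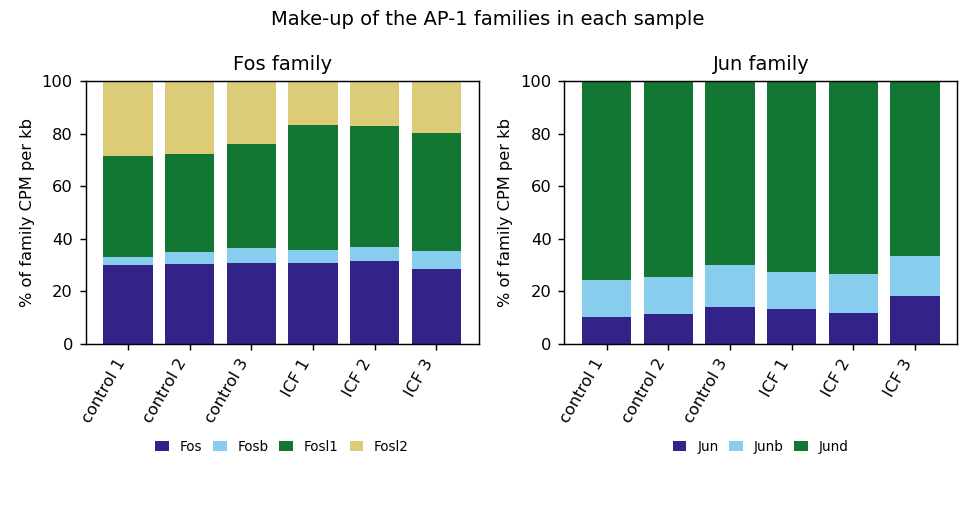
Share of each gene in the summed CPM per kilobase of the Fos family (left) and the Jun family (right), stacked to 100% for each of the 6 samples. The Fosl1 share is 37.5% to 39.7% in the control and 44.8% to 47.6% with ICF, the Fosl2 share is lower in every ICF sample, and Jund holds most of the Jun family in every sample.

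Of 15 other partners of AP-1, 13 were tested. In edgeR 0 were called higher and 1 lower (median log2 fold change -0.03), against 3.47% and 4.38% of all genes. Maff, which encodes a small MAF protein without an activation domain, fell by 1.17 on the log2 scale (standard error 0.24, adjusted p = 0.00691, edgeR). Its level was 19.1, 19.9 and 16.5 CPM in control donors 1, 2 and 3, and 6.02, 8.59 and 10.2 CPM in ICF donors 1, 2 and 3. With the donor block, which called 14.6% of all genes higher and 15.3% lower, the count was 2 higher and 4 lower. It was 1 higher without control donor 3 (724 over all genes) and 2 lower without ICF donor 3 (771 over all genes). Batf and Batf2 had 0 to 3 counts per sample and were not tested.

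Of 44 other immediate early genes, 43 were tested. In edgeR 2 were called higher and 2 lower (median log2 fold change -0.08), against 3.47% and 4.38% of all genes. Plk2, a polo-like kinase, rose from 26.6 ± 1.09 to 60.3 ± 13.8 CPM (SD, n = 3 each), and Btg2, an antiproliferative regulator of mRNA decay, rose from 48.4 ± 1.07 to 80.9 ± 5.42 CPM (SD, n = 3 each). Both are also known targets of p53, and both were among the genes the study listed from these samples, so they are not independent evidence. Dusp1, a phosphatase that switches off MAP kinases, fell from 32.2 ± 3.12 to 19.9 ± 0.69 CPM (SD, n = 3 each), and Gadd45b, a stress-response gene that activates MAP kinase kinase kinases, fell from 15.3 ± 1.08 to 11.3 ± 1.02 CPM (SD, n = 3 each). Their adjusted p-values in edgeR were 0.00252 for Plk2, 0.000812 for Btg2, 0.00333 for Dusp1 and 0.0412 for Gadd45b. With the donor block 4 of the 43 were called higher and 14 lower, against 14.6% and 15.3% of all genes, and DESeq2 called 5 lower, against 6.63%. Without ICF donor 3 the count lower was 6 and without control donor 3 it was 5, where it was 771 and 928 over all genes. It was 1 without control donor 1, control donor 2, ICF donor 1 or ICF donor 2. With any 1 of these 4 samples left out the calls over all genes also dropped, from 580 higher and 733 lower to 85 to 232 higher and 215 to 349 lower, which bears on the counts of every list. Egr3 had 4 to 24 counts per sample and was not tested.

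The inputs of these genes were also compared. They were 24 genes for MAP kinases and serum response factor and its partners, all tested. Of them 1 was called higher and 3 lower (median log2 fold change 0.02), against 3.47% and 4.38% of all genes. Map2k1, which encodes the ERK kinase MEK1, fell from 198 ± 7.73 to 149 ± 9.17 CPM, and Mapk8, which encodes the JUN kinase JNK1, fell from 55.5 ± 0.58 to 43.4 ± 0.38 CPM (SD, n = 3 each). Map3k1, which acts above the JUN kinases, fell from 60.7 ± 6.78 to 44.0 ± 2.11 CPM (SD, n = 3 each). Mapkapk3, a kinase activated by p38 that the study also listed from these samples, rose from 28.1 ± 0.26 to 49.3 ± 2.90 CPM (SD, n = 3 each). The adjusted p-values in edgeR were 0.00846, 0.00983, 0.019 and 0.000645. With the donor block 2 of the 24 were called higher and 6 lower, against 14.6% and 15.3% of all genes. Without control donor 2 or ICF donor 1 the count lower was 0, where it was 215 and 290 over all genes. Without control donor 1 it was 1 (251 over all genes), and without control donor 3 it was 5 (928 over all genes). These are mRNA levels, and kinase activity was not measured.

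Among 29 known targets of AP-1 or EGR proteins, 27 were tested. Here 3 were called higher and 2 lower (median log2 fold change 0.08), against 3.47% and 4.38% of all genes. Lif, a cytokine that sustains mouse pluripotent cells, rose from 8.93 ± 0.62 to 13.6 ± 1.00 CPM, and Cd44, a hyaluronan receptor, rose from 12.8 ± 1.87 to 18.7 ± 2.32 CPM (SD, n = 3 each). Ccnd1, which encodes cyclin D1 and which the study chose from these samples, was also called higher, by 0.33 on the log2 scale. Plaur, the urokinase receptor, fell by 0.35 on the log2 scale, and Vegfa, an angiogenic factor that hypoxia-inducible factors also induce, fell from 123.2 ± 2.71 to 84.8 ± 3.76 CPM (SD, n = 3 each). The adjusted p-values in edgeR were 0.0124 for Lif, 0.0458 for Cd44, 0.0163 for Ccnd1, 0.0391 for Plaur and 0.00172 for Vegfa. With the donor block 9 of the 27 were called higher and 4 lower, against 14.6% and 15.3% of all genes, and DESeq2 called 5 higher, against 5.64%. Without control donor 1, control donor 2 or ICF donor 1 the count higher was 0, where it was 109, 85 and 181 over all genes. Without control donor 3 it was 5, where it was 724 over all genes. The count lower was 1 with any sample other than ICF donor 3 left out.

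The 12 genes of the stress pathways that can induce Atf3, named stress inputs below, include targets of p53 and ATF4. All 12 were tested, and 2 were called higher and 1 lower (median log2 fold change -0.11), against 3.47% and 4.38% of all genes. The higher ones were the p53 targets Cdkn1a, a cell cycle inhibitor, with a log2 fold change of 0.72 (adjusted p = 0.0308, edgeR), and Mdm2, which restrains p53, with 0.78 (adjusted p = 0.0297, edgeR). The study named Mdm2 among the genes that differed in these samples, so it is not independent evidence. The lower one was Chac1, a glutathione-degrading target of ATF4, which fell from 51.8 ± 7.76 to 26.6 ± 2.85 CPM (SD, n = 3 each, adjusted p = 0.00322, edgeR). Atf4 itself had a log2 fold change of -0.16 (adjusted p = 0.162, edgeR). Ddit3 and Trib3, further genes of that branch, were not called. With the donor block the count lower was 5 of 12, against 15.3% of all genes. Without control donor 1 or control donor 2 the count higher was 0, where it was 109 and 85 over all genes. Without ICF donor 1 the count higher was 1 (181 over all genes). Without control donor 3 the count lower was 2 (928 over all genes).

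**Figure D5:**
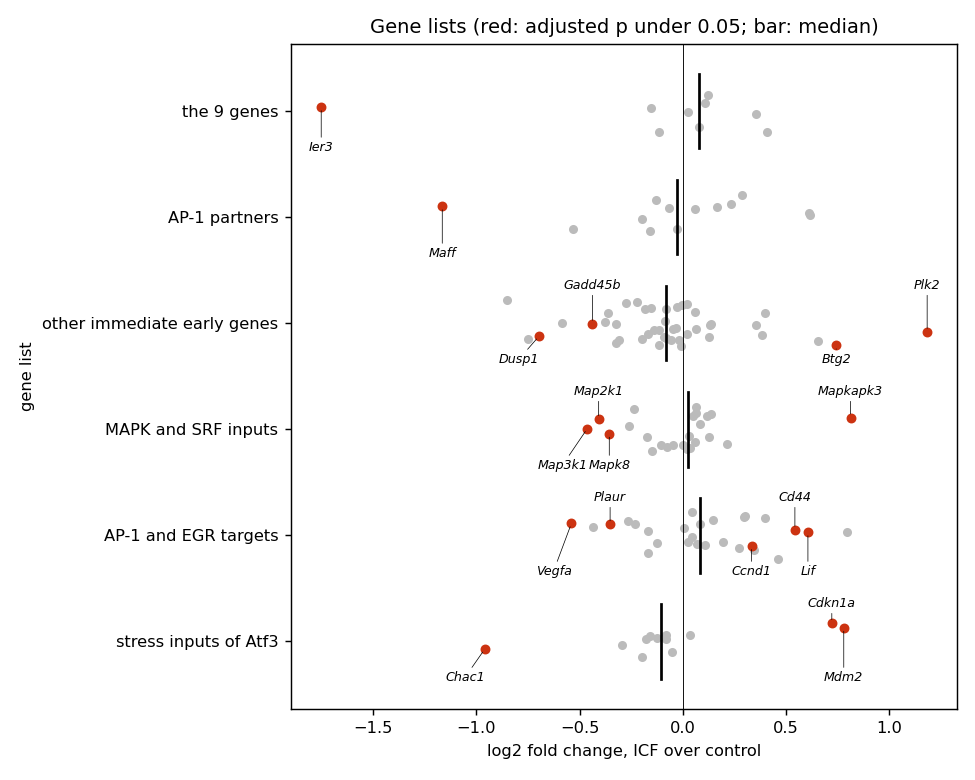
Log2 fold changes of the tested genes in each list, with genes past an adjusted p of 0.05 in red and named, the others in grey and the median as a bar. Ier3 at -1.75 and Maff at -1.17 are the lowest genes shown, Plk2 at 1.18 is the highest, and the medians lie between -0.11 and 0.08.

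The genes with the most similar profile were found by the root mean square difference of log2 CPM, each gene centred on its own mean over the 6 samples. The nearest to Fos were Yy1 (0.026) and Acadl (0.027), those nearest to Egr1 were Csnk1a1 (0.011) and the pseudogene Akt2-ps (0.020), whose reads are uncertain where it resembles Akt2, and those nearest to Atf3 were Znhit6 (0.032) and Ube2cbp (0.043). None of these 6 passed the edgeR test, with adjusted p-values from 0.0698 to 0.735. Genes chosen by profile share the group difference of the gene they resemble, so these test results follow largely from the choice. The nearest to Ier3, which were looked up after its values had been seen, were Ldha (0.089) and Ccdc113 (0.129). Ldha, which encodes the lactate dehydrogenase A subunit, fell by 1.69 on the log2 scale (adjusted p = 0.000308, edgeR), and Ccdc113 by 1.61 (adjusted p = 0.00856, edgeR). Both falls follow from the choice, and the study also listed Ldha from these samples, so they are not independent evidence.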

How the data were processed

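RNA sequencing covered 3 ICF and 3 control samples. According to the study's methods the authors made strand-specific libraries, sequenced them single-ended with 75 cycles, and used Trimmomatic for filtering, HISAT2 for mapping and HTSeq for counting. The deposited values are raw counts per Ensembl gene, not normalized. The submitters' processing notes name hg38 and GRCm38 as builds. Tool versions other than bcl2fastq 2.19 and the annotation are not given in the sources used here. Class totals that name no gene held 38.1% to 40.3% of each file and were left out.

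Symbols and coordinates came from GENCODE M21 (GRCm38), which held 50376 of the 50686 identifiers. Stretches of 75 bases were taken from the longest annotated transcript of each of the 9 genes, and not from all its exons. None matched another gene on the same strand, and 5.07% of those of Jun matched one on the opposite strand. Counts were tested with edgeR 4.0.16 in R 4.3.3 (filterByExpr, TMM, quasi-likelihood test, no block) over 16729 genes. With 3 samples in each group, this test can miss small changes. Log2 CPM used a prior count of 2, and standard errors were computed from its spread in each group. Exact permutation tests used scipy 1.17.1. Alternatives were DESeq2 1.42.0, RLE size factors, a looser filter (1 count or more in some sample), a stricter one (10 counts or more in all samples), the donor number as a replicate block, ICF donor 3 counts divided by 4, CPM without TMM factors, family shares by counts, and each sample left out.

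The donor numbers in the labels pair the samples by donor. Over genes, the departures of the 2 samples of a donor from their group means had r of 0.150, 0.197 and 0.376. Between different donors r was -0.343 to 0.263, with control donor 1 and ICF donor 2 at 0.263 and control donor 2 and ICF donor 1 at 0.174, so the values do not tell donors 1 and 2 apart and the pairing rests on the labels. The methods name 3 independent experiments but no separate animals, so p-values may measure technical spread. The 9 genes and the lists were chosen with earlier results of these data known. The genes named are the 9, listed genes past the threshold, Fosl1, Fosl2, Jund and the nearest profiles of Fos, Egr1 and Atf3. Others were named after their values were seen. Counting error weighs most on Egr2 and Fosb, which had the fewest counts.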

Additional observations from a re-analysis of the deposited data

How the results depend on the processing

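Ier3 kept its direction and its call in all 12 alternatives, with a log2 fold change from -1.93 to -1.65, and the replicate block brought Atf3 past the threshold (0.35), the only other change of call among the 9 genes. With the block, 1 of the 9 genes was called higher, and it changed no other call among them. The sign turned for uncalled genes with values near 0. Fos was -0.0017 with ICF donor 3 counts divided by 4, -0.0049 without control donor 3 and -0.034 without ICF donor 3. Jun was -0.013 and Egr2 0.13 without ICF donor 3, and Egr2 was 0.014 with its counts divided by 4. Ier2 was -0.022 without control donor 3 and -0.015 without ICF donor 2. Egr2 has no value with the stricter filter. Left out in turn, the samples gave -0.034 to 0.072 for Fos, -0.013 to 0.20 for Jun, -0.42 to 0.13 for Egr2 and -0.02 to 0.19 for Ier2. The cause of these moves was not tested.

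Counts of calls moved more. With the block they were 2445 higher and 2561 lower over all genes, 2 and 4 for AP-1 partners, 4 and 14 for other immediate early genes, 2 and 6 for the kinase and serum response factor inputs, 9 and 4 for targets, and 5 lower for stress inputs. With DESeq2 they were 943 and 1109 over all genes, 1 and 2 for partners, 5 lower for other immediate early genes, 2 higher for inputs, 5 higher for targets and 2 lower for stress inputs. With the looser filter they were 841 and 1019 over all genes, and 1 and 2 for partners. That filter also gave 5 lower for other immediate early genes, 6 higher for targets and 2 lower for stress inputs. With ICF donor 3 counts divided by 4, 667 genes were higher and 875 lower over all genes. There, 2 partners and 5 other immediate early genes were lower. With each sample left out in turn, 85 to 724 genes were higher and 215 to 928 lower over all genes (fewest without control donor 2), 0 to 1 and 1 to 2 for partners, 2 to 3 and 1 to 6 for other immediate early genes, 1 to 1 and 0 to 5 for inputs, 0 to 5 and 1 to 2 for targets, and 0 to 2 and 1 to 2 for stress inputs. By counts and not per length, Fosl2 held 59.2% of the Fos family in the control and 46.3% with ICF, and Fosl1 held 18.0% and 25.1%.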
